A study of Mus musculus with 9 samples.

Results

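Rab GTPases were examined in mouse bone marrow-derived mast cells at rest, after binding of IgE and after cross-linking of that IgE by antigen. Members were all rows of the gene table whose symbol is Rab followed by a number and at most 1 letter and 1 digit, which found 58 of 23951 symbols. Of these, 46 reached 1 FPKM (mapped fragments scaled to transcript length and library size) in at least 3 libraries and were tested, while 12 did not. The study measured messenger and long non-coding RNA in 9 libraries, 3 in each of 3 groups. All cells were of the C57BL/6 strain, wild type, and cultured out of bone marrow over 4 to 6 weeks, with stem cell factor (SCF) and interleukin-3 (IL-3) at 10 ng/ml each, so every group had received both growth factors. More than 95% of the cells were FcER1+ CD117+, per the labels, which places them in the mast cell lineage by the high-affinity IgE receptor and by KIT. Untreated cells received nothing further. IgE cells were sensitized for 18 h with DNP-specific IgE at 0.5 µg/ml, DNP being a small hapten. Antigen cells received the same IgE and then 50 ng/ml DNP-BSA, albumin coupled to DNP, for 2 h. Whether the 3 libraries of a group stem from different cultures or mice is not in the labels, and the p-values therefore speak of differences among these libraries, whose spread could be technical alone.

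Rab proteins are small GTPases that mark the membranes of the cell. Bound to GTP they recruit effectors that move, tether and fuse vesicles, and exchange factors (GEFs) and GTPase-activating proteins (GAPs) switch them on and off. A mast cell stores histamine, proteases and other mediators in secretory granules related to lysosomes, and cross-linking of its IgE receptor releases them within minutes, takes the receptor into endosomes and starts the making of new granules and cytokines.

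The label of the cells was compared with marker genes. Of 12 mast cell markers, 10 were detected, with summed levels of 14617 to 15350 FPKM in untreated, 13675 to 14475 in IgE and 15094 to 15498 in antigen libraries. Most of this sum came from Tpsb2 and Fcer1a, and it hides changes of single markers in both directions. From IgE to antigen, mean Hdc went from 28.7 to 895 FPKM, Slc18a2 from 369 to 689 and Tpsb2 from 6256 to 7420. Mean Fcer1a went from 5639 to 4815 FPKM, Ms4a2 from 1080 to 626 and Mrgprb2 from 130 to 81.1. The proteases Cpa3 and Cma1 were listed at 0 in all 9 libraries, whereas Tpsb2, Fcer1a, Ms4a2 and Kit were abundant. In a table without counts an exact 0 can be a failed estimate, so these zeros do not show that both genes were silent. The 7 macrophage and monocyte markers in the table summed to 95.3 to 101 FPKM in untreated, 78.8 to 85.3 in IgE and 80.5 to 81.4 in antigen libraries, within which Lyz2 went from 72.1 to 53.8 and 37.5 FPKM and Cd68 from 8.62 to 16.1 and 30.2 FPKM. The 4 basophil markers summed to 823 to 853, 709 to 743 and 902 to 916 FPKM in the same order, nearly all of it from Cd200r3 and Itga2b. Neutrophil, B and T cell and dendritic cell markers summed to at most 3.86 FPKM in any library. Erythroid markers, mostly Hbb-bt, summed to 17.7 to 20.7, 24.4 to 25.7 and 30.2 to 31.7 FPKM, and megakaryocyte markers, mostly Itga2b, to 435 to 439.9, 361 to 375 and 392 to 404 FPKM. In bulk RNA, fewer cells of a type and less RNA per cell cannot be told apart, and the part of these markers in the results below was not tested.

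Library depth, as the spacing of small values implied it, was 29.6 to 33.0 M fragments in untreated, 32.3 to 39.3 M in IgE and 20.8 to 28.6 M in antigen libraries. From these depths, a 2 kb transcript at 1 FPKM would vary by 11.3% to 15.5% (coefficient of variation) through counting error. Values summed over all genes were 554415 to 575197 FPKM in antigen libraries and 469206 to 524935 in the other 6. Antigen replicate 3 had zeros for every sex-linked gene detected in each of the other 8 libraries (437 on X, 4 on Y), but for only 62 of 12966 such autosomal genes. These zeros were treated as missing, which leaves 2 antigen libraries for the 4 X-linked members, Rab9, Rab9b, Rab33a and Rab39b.

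Before any treatment the family summed to 2064 ± 8.41 FPKM (SD, n = 3 libraries, as for every ± below unless stated), and a few members made up most of it. Rab38, which works with Rab32 in building lysosome-related organelles, was the most abundant at 257 ± 4.41 FPKM, or 12.4% of the family. Rab44, a large Rab with additional domains, followed at 197 ± 3.24 FPKM and Rab37, found on mast cell secretory granules, at 167 ± 2.62 FPKM. Next in order were Rab5c of early endosomes at 126 ± 2.46, Rab8b of transport to the cell surface at 119 ± 2.902, Rab7 of late endosomes at 107 ± 2.25 and Rab27b of granule docking at 95.03 ± 2.08 FPKM. These 7 members held 51.7% of the family's summed FPKM, and the libraries of neighbours among them did not overlap. Below them the order was less distinct: the untreated libraries of Rab8a, Rab1 and Rab2a overlapped in turn, as did those of Rab19 and Rab14 and of Rab35 and Rab11a. At the lower end Rab4a, Rab17 and Rab6b lay near 3.3 FPKM with overlapping libraries, and Rab36, Rab23 and Rab40b lay between 1.25 and 1.33 FPKM, close to the level needed for a test.

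**Figure D1:**
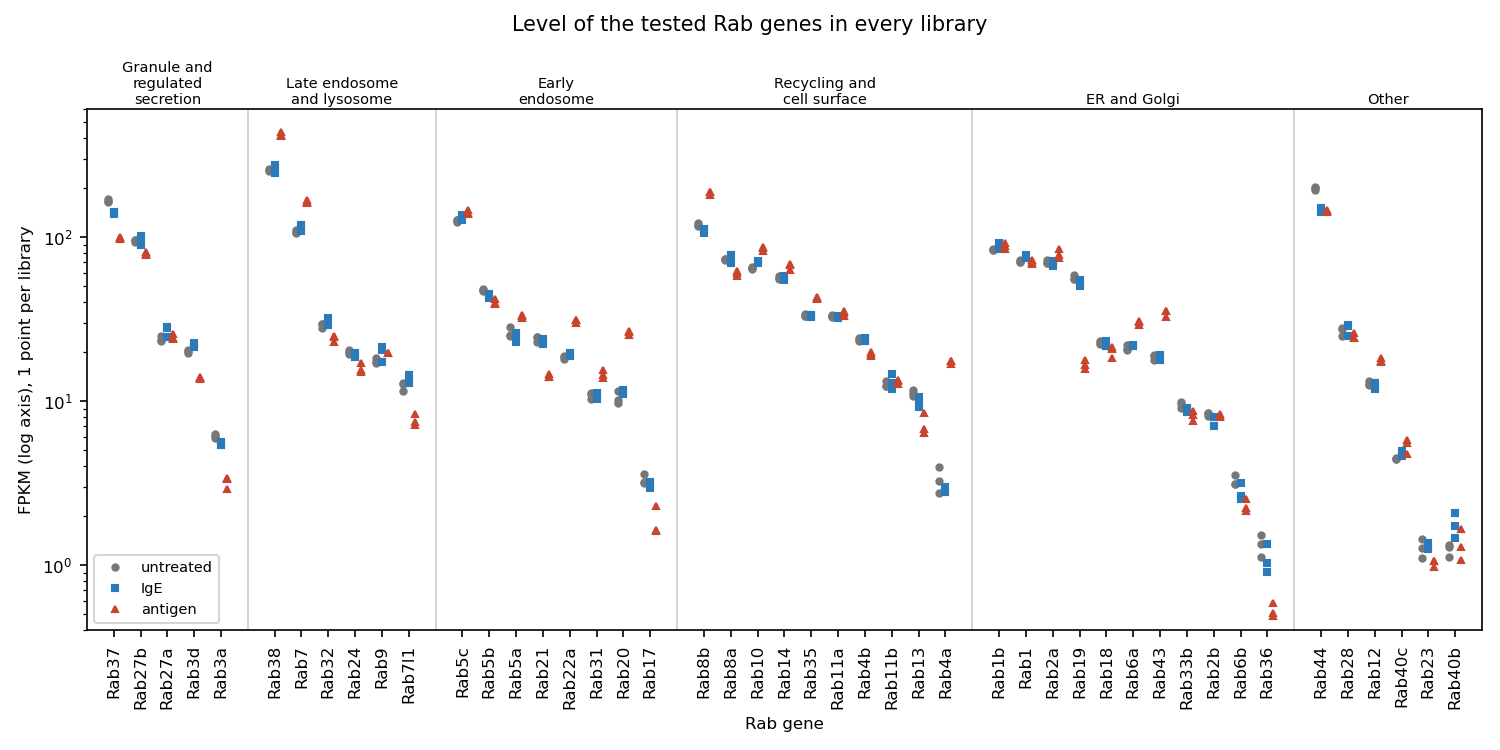
FPKM of the 46 tested Rab genes on a log axis, 1 point per library, with the genes grouped by role and ordered by their untreated mean; grey circles are untreated, blue squares IgE and red triangles antigen libraries. Untreated and IgE points lie close together for most genes, while antigen points stand apart for genes such as Rab4a, Rab38, Rab8b and Rab19, and Rab9 has 2 antigen points.

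Promoter sequences are shown for 4 members among the largest rises or falls after antigen, and for Rab5a, a smaller rise chosen after the search because its window held the cyclic AMP response element described below. Of the 58 members, 48 were found in the RefSeq promoter table of GRCm38.p6, which is not the mm9 build of the expression files, so these positions belong to GRCm38.p6 only. Each stretch lies within the 250 bases before the annotated start, reads 5′ to 3′ on the gene's strand and stops at the first base that an annotated GENCODE exon covers. The first 3 belong to genes that rose: Rab20 (chr8:11478711-11478890, minus strand), Rab8b (chr9:66919706-66919955, minus strand) and Rab5a (chr17:53478984-53479233, plus strand). The other two belong to genes that fell: Rab19 (chr6:39381103-39381174, plus strand) and Rab7l1, listed as Rab29 in RefSeq (chr1:131867027-131867223, plus strand). Capitals mark a cyclic AMP response element (TGACGTCA) or an E-box (CACGTG).
Rab20: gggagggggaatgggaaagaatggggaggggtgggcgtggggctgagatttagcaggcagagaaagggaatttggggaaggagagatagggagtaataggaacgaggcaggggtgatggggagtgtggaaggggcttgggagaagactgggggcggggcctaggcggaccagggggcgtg
Rab8b: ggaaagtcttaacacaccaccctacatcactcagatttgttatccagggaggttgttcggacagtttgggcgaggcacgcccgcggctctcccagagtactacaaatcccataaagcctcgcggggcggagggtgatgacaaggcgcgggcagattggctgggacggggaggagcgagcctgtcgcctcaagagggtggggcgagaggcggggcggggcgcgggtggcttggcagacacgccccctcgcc
Rab5a: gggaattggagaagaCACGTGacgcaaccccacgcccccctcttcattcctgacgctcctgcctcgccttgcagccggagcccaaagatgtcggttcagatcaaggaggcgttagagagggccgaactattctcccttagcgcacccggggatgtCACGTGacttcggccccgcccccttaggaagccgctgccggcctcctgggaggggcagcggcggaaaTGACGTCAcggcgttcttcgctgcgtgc
Rab19: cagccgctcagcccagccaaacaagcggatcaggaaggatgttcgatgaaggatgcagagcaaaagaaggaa
Rab7l1: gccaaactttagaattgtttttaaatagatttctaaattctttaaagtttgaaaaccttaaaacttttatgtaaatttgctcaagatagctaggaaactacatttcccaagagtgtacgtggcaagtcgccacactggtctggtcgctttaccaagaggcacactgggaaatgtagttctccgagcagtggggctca
The guanine and cytosine content of these stretches was 62.2% for Rab20, 64.4% for Rab8b, 64.0% for Rab5a, 52.8% for Rab19 and 39.1% for Rab7l1, and they held 5, 20, 23, 3 and 4 CpG dinucleotides. The stretches were 180, 250, 250, 72 and 197 bases long in this order, so their CpG counts are not directly comparable.

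Motifs were searched on both strands of the full 250 bases of 32851 promoter windows, so a match can lie in bases left off above. These windows include those of 38 tested members. Members were counted as genes with a match in any of their windows, whereas the percentages count windows, so the 2 are unlike measures. The cyclic AMP response element TGACGTCA was in 1.55% of all windows and was found for 1 of the 38 genes, Rab5a. The AP-1 motif TGANTCA was in 6.75% of all windows and was found for none of the 38 genes. The E-box CACGTG was in 6.02% of all windows and was found for 5 of the 38 genes, Rab5a, Rab20, Rab21, Rab23 and Rab27a. Of these, Rab5a and Rab20 rose after antigen and Rab21 and Rab23 fell. The EGR motif GCGNGGGCG was in 4.7% of all windows and in those of Rab1b, Rab10 and Rab22a. The kappa B motif was in 3.9% of all windows and in a window of Rab28, and the ETS motif CCGGAAGT was in 2.88% of all windows and in those of Rab11a and Rab24. No searched motif contains another, and a match describes the letters of this window only.

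Antigen against IgE asks what 2 h of receptor cross-linking adds to cells that already carry IgE. Of the 46 tested members, 15 rose and 19 fell (34 in either direction, where 73.8% of all tested genes were called), to be read against 37.6% of all 10890 tested genes called higher and 36.2% called lower (limma, adjusted p under 0.05). The members' median change was -0.06 on the log2(FPKM + 1) scale, against 0.01 over all tested genes, and their median absolute change was 0.303 against 0.321. The shares of called members were thus near those of all genes. Among the 46 tested members, Rab4a rose 6.04-fold and Rab19 fell 3.14-fold, the largest change in each direction. Libraries of the 2 groups did not overlap for 16 members on the higher side and 19 on the lower side, against 38.3% and 37.0% of all tested genes. A log2 change of at least 0.5 was reached by 7 members in each direction, against 17.2% and 15.1% of all genes. The pseudocount of 1 makes log2 changes of weakly expressed members too small, and folds are therefore given without it, as the ratio of mean FPKM.

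**Figure D2:**
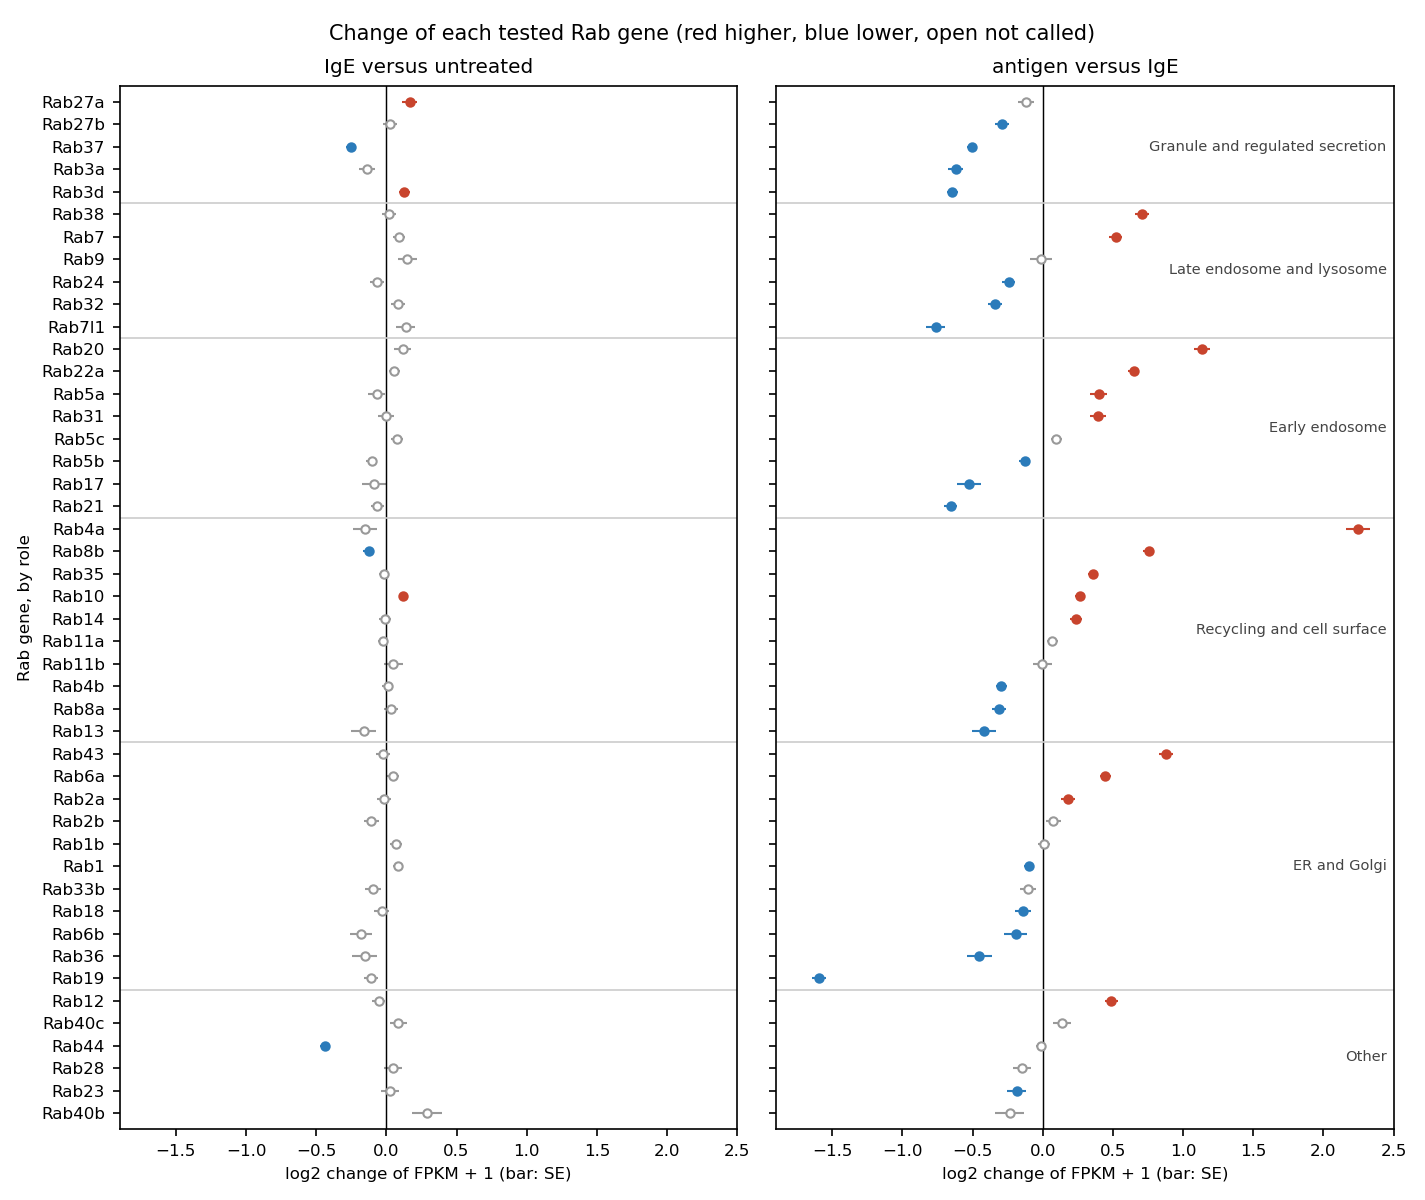
Change of each tested Rab gene on the log2(FPKM + 1) scale with its SE, IgE against untreated on the left and antigen against IgE on the right, filled red where called higher, filled blue where called lower and open where not called. Few members were called after IgE alone (6 of 46), and after antigen the calls range from -1.59 for Rab19 to 2.24 for Rab4a.

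Among Rabs of secretory granules and regulated secretion, 4 of the 5 tested members fell after antigen and none rose, beside 36.2% of all tested genes lower and 37.6% higher, the shares that apply to each role count below. The role lists were made with earlier results known, and such counts depend on the grouping. Rabs of lysosome-related organelles were listed apart, as were Rab12 and Rab44. The summed level of the granule and secretion list, over all 8 members, was 313 ± 1.78 FPKM in untreated, 292 ± 10.1 in IgE and 219 ± 1.84 in antigen cells. Rab37 was at 141, 141 and 138 FPKM in the IgE libraries and 99.4, 98.4 and 97.6 in the antigen libraries (log2 change -0.50, SE 0.0335, adjusted p = 2.59e-07). It was the most abundant Rab of this role and its 3 groups followed each other downward without overlap, from 167 ± 2.62 in untreated to 139.9 ± 2.04 and 98.5 ± 0.943 FPKM. Rab3d, a Rab of regulated exocytosis, was at 22.4, 21.2 and 22.6 FPKM after IgE and 13.8, 13.6 and 13.9 after antigen (log2 change -0.64, SE 0.0387, adjusted p = 1.13e-07). Rab3a, its relative known from synaptic vesicles, was at 5.41, 5.41 and 5.59 and 3.34, 3.37 and 2.92 FPKM (log2 change -0.62, SE 0.0556, adjusted p = 2.55e-06). For both Rab3 genes every antigen library lay below every IgE library. Rab27b, which docks granules at the plasma membrane through its effectors, was at 102, 98.6 and 89.6 FPKM after IgE and 78.3, 77.7 and 80.6 after antigen (log2 change -0.29, SE 0.0487, adjusted p = 0.000309). Rab27a, with related functions, did not pass the test: its libraries were at 28.1, 28.1 and 24.6 and 24.3, 23.9 and 25.8 FPKM and overlapped (log2 change -0.12, SE 0.0557, adjusted p = 0.0738). Rab27a was called lower under quantile normalization (-0.24, adjusted p = 0.00184), under median centring (-0.17, adjusted p = 0.0214) and without IgE replicate 3 (-0.18). Quantile normalization took the changes of Rab37 and Rab27b to -0.79 and -0.55. Of the members under the filter, Rab26, Rab3b and Rab3c had means of at most 0.46 FPKM in every group.

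Rabs of late endosomes, lysosomes and lysosome-related organelles changed in both directions, with 2 of 6 tested members higher and 3 lower. Rab38 was at 263, 273 and 245 FPKM in the IgE libraries and 438, 421 and 416 in the antigen libraries, a 1.63-fold rise (log2 change 0.71, SE 0.0485, adjusted p = 3.23e-07). Its share of the family's summed FPKM went from 13.0% to 18.8%. Rab7, which brings late endosomes to fusion with lysosomes, was at 117, 108 and 118 and 164, 169 and 160.4 FPKM, a 1.44-fold rise (log2 change 0.52, SE 0.0437, adjusted p = 1.58e-06). Antigen libraries of both genes lay above all other libraries. Quantile normalization kept both calls at lower size, 0.36 for Rab38 and 0.19 for Rab7. Rab32, the close relative of Rab38, moved the other way, with 31.3, 31.99 and 28.99 FPKM after IgE and 22.8, 24.6 and 24.8 after antigen (log2 change -0.34, SE 0.05001, adjusted p = 0.000118). Rab7l1, the gene now named Rab29, which acts at the trans-Golgi network and lysosomes, was at 13.6, 14.4 and 12.97 and 7.14, 8.35 and 7.49 FPKM (log2 change -0.76, SE 0.0659, adjusted p = 1.94e-06). Rab24, linked to autophagy, fell from 18.9 ± 0.473 to 15.9 ± 0.972 FPKM (log2 change -0.24, SE 0.04798, adjusted p = 0.000967). Rab9, which returns cargo from late endosomes to the Golgi, had 19.5 and 19.6 FPKM in the 2 usable antigen libraries, inside the IgE range of 21.4, 20.5 and 17.4 (adjusted p = 0.915). The role as a whole summed to 458 ± 14.6 FPKM after IgE and 650 ± 22.9 after antigen, where antigen replicate 3 lacks Rab9, and Rab38 made up most of this difference.

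Early endosome Rabs were split too, with 4 of 8 tested members higher and 3 lower after antigen. Rab20, described on early endosomes and maturing phagosomes, was at 11.7, 11.3 and 11.1 FPKM after IgE and 26.9, 25.2 and 26.3 after antigen, a 2.301-fold rise (log2 change 1.13, SE 0.0586, adjusted p = 3.39e-08). Rab22a, which sorts cargo from early endosomes to recycling, was at 18.7, 19.6 and 19.6 and 31.4, 30.05 and 31.1 FPKM (log2 change 0.65, SE 0.0384, adjusted p = 9.82e-08). Rab5a, a Rab that drives fusion of early endosomes, was at 26.04, 25.3 and 22.98 and 33.5, 33.1 and 32.1 FPKM (log2 change 0.40, SE 0.0579, adjusted p = 0.00011). All antigen libraries of these 3 genes were above all IgE and untreated libraries. Rab31, a relative of Rab22a, rose 1.34-fold to 14.5 ± 0.919 FPKM. In the other direction, Rab21, which acts in the uptake of integrins, was at 24.02, 22.9 and 22.2 FPKM after IgE and 14.1, 14.6 and 14.1 after antigen (log2 change -0.65, SE 0.0453, adjusted p = 3.43e-07). Rab17, best known from epithelial cells, was at 3.09, 3.205 and 2.94 and 1.62, 2.28 and 1.63 FPKM, a low level at which counting error weighs more (log2 change -0.53, SE 0.0881, adjusted p = 0.000305). Antigen libraries of both lay below all others.

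The 3 Rab5 genes, which share the early endosome role, differed among themselves. Rab5c was the most abundant, at 127, 136 and 134 FPKM after IgE and 146, 138 and 141 after antigen. Its groups did not overlap, yet it did not pass the test (log2 change 0.10, SE 0.0408, adjusted p = 0.051), though 4 alternatives called it higher (zeros as deposited, no filter, and without IgE replicate 2 or 3). Quantile normalization turned its direction (-0.23, adjusted p = 0.00119). Rab5b fell slightly from 44.1 ± 1.17 to 40.2 ± 1.52 FPKM (log2 change -0.13, SE 0.0392, adjusted p = 0.0125), a call lost without antigen replicate 1 (adjusted p = 0.0534). As shares of the 3 genes' summed FPKM, Rab5a went from 12.3% ± 0.948 to 15.3% ± 0.385, Rab5b from 21.9% ± 0.141 to 18.7% ± 0.829, and Rab5c from 65.8% ± 0.828 to 65.9% ± 0.766.

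**Figure D3:**
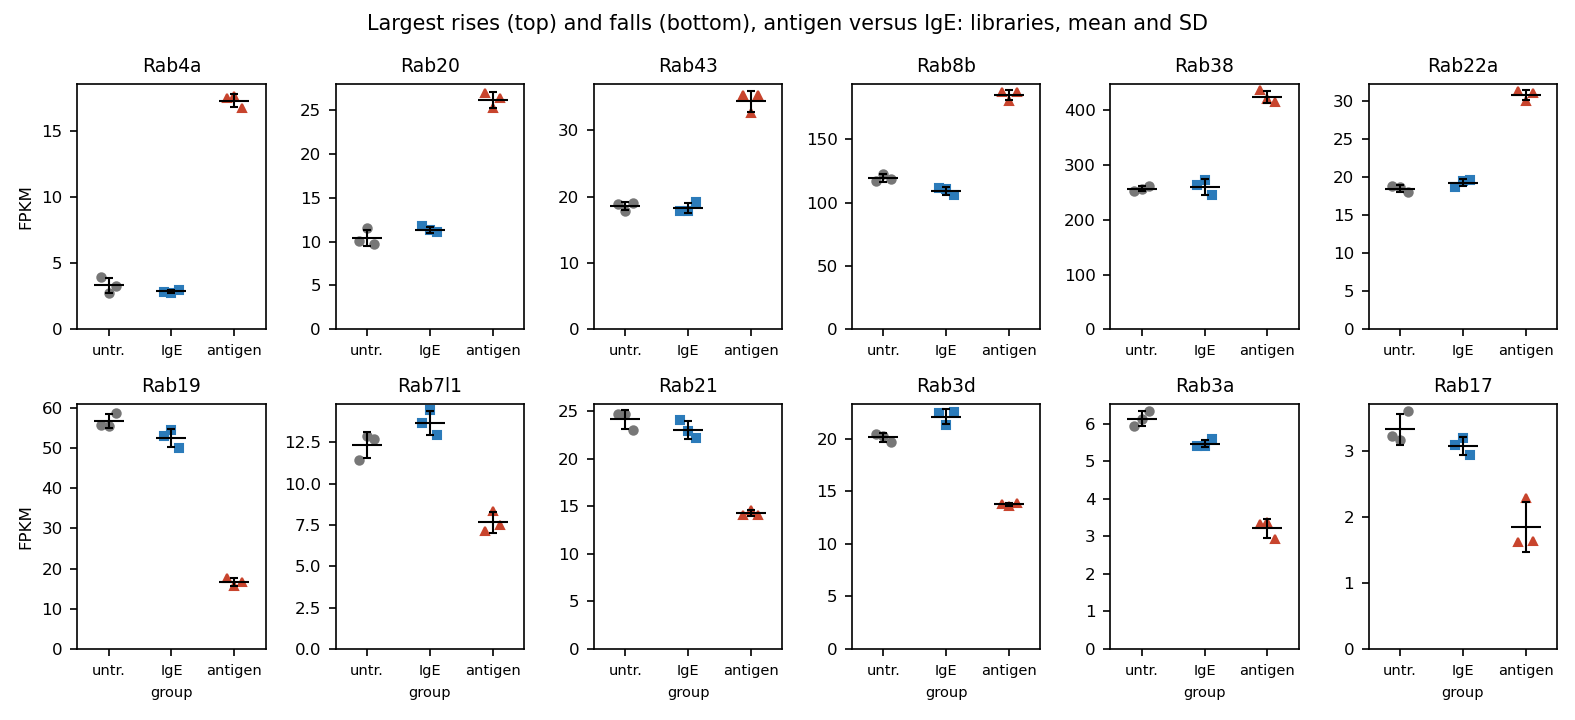
FPKM in every library of the 6 Rab genes with the largest rises (top) and the 6 with the largest falls (bottom) in antigen against IgE, ranked by log2 change of FPKM + 1. Each axis starts at 0, and black bars are means with SD over 3 libraries. By fold of mean FPKM, Rab36 (2.08-fold, not shown) fell more than all but Rab19. The falls were picked among members without overlap between antigen and IgE libraries. Antigen libraries of the 6 rises do not overlap the IgE libraries, and those of all 12 genes do not overlap the untreated libraries.

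Among Rabs of recycling and delivery to the cell surface, 5 of 10 tested members rose and 3 fell. Rab4a, which returns receptors quickly from early endosomes to the surface, was at 3.94, 2.76 and 3.25 FPKM in untreated, 2.8, 2.78 and 3.01 in IgE and 17.5, 17.6 and 16.7 in antigen libraries. This was the largest change among the 46 tested members, 6.04-fold (log2 change 2.24, SE 0.0857, adjusted p = 3.35e-09), and the 3 antigen libraries lay far above the other 6, which overlapped. Its relative Rab4b was at 23.3, 24.01 and 24.4 FPKM after IgE and 19.3, 19.8 and 18.7 after antigen and fell (log2 change -0.29, SE 0.0387, adjusted p = 5.28e-05). Rab4a made up 10.7% ± 0.308 of the summed FPKM of both genes after IgE and 47.3% ± 0.237 after antigen. Rab8b, which brings vesicles to the plasma membrane, was at 111, 111 and 106 and 188, 181 and 187 FPKM (log2 change 0.75, SE 0.0384, adjusted p = 2.98e-08) and became the second most abundant Rab. Rab8a, with related functions, was at 77.9, 77.3 and 69.6 and 62.1, 60.6 and 57.7 FPKM and fell (log2 change -0.31, SE 0.0488, adjusted p = 0.000188), so that Rab8b went from 59.4% ± 0.842 to 75.5% ± 0.838 of the pair. Quantile normalization changed the sizes to 0.41 for Rab8b and -0.53 for Rab8a.

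Rab35, of fast recycling, rose 1.29-fold to 42.6 ± 0.719 FPKM (log2 change 0.36, SE 0.0336, adjusted p = 3.66e-06), with a size of 0.21 under quantile normalization. Rab10 and Rab14, both known from delivery of the glucose transporter to the surface, rose 1.203-fold and 1.18-fold (adjusted p = 6.17e-05 and 0.000565), and under quantile normalization neither was called (adjusted p = 0.862 and 0.832). Rab13, of transport to cell junctions, fell from 9.92 ± 0.692 to 7.198 ± 1.098 FPKM (log2 change -0.42, SE 0.0868, adjusted p = 0.00129). Rab11a, the main Rab of slow recycling, was at 31.9, 33.1 and 32.4 FPKM after IgE and 33.01, 34.2 and 35.2 after antigen, which overlapped (log2 change 0.07, SE 0.0366, adjusted p = 0.112). Rab11b did not pass the test either (13.2 ± 1.39 and 13.1 ± 0.374 FPKM, adjusted p = 0.969), and Rab11a held 71.2% ± 2.32 and 72.3% ± 0.117 of the pair after IgE and antigen.

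**Figure D4:**
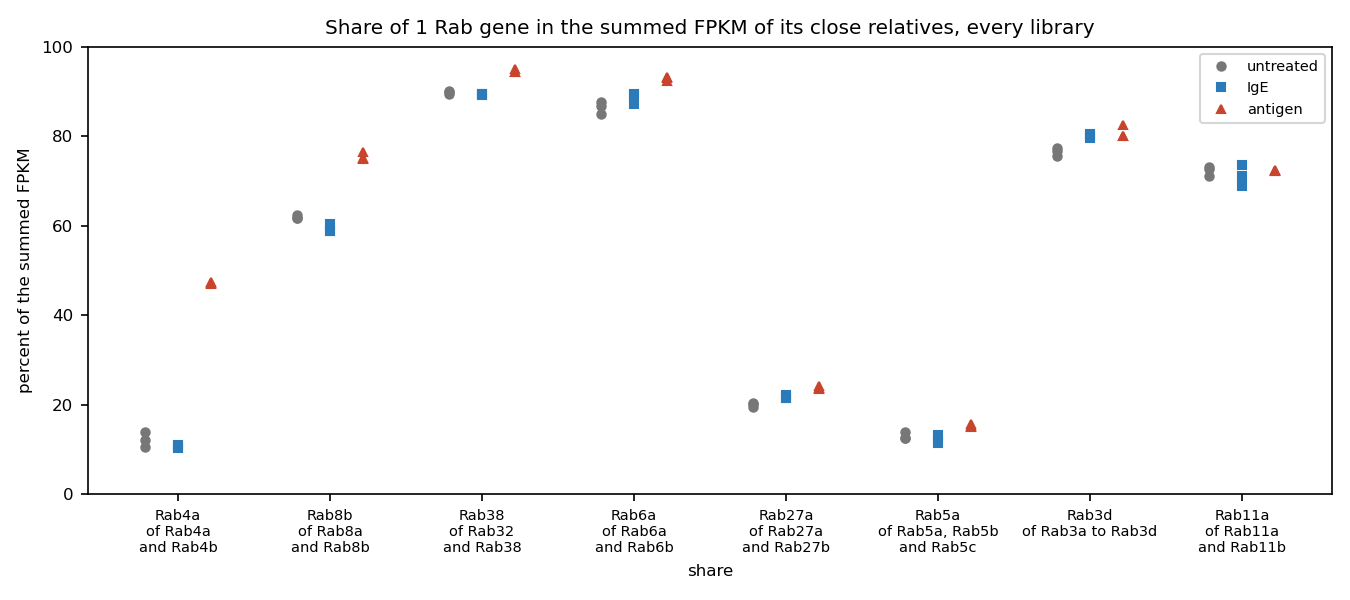
Share of 1 Rab gene in the summed FPKM of its close relatives, in percent, 1 point per library; grey circles are untreated, blue squares IgE and red triangles antigen libraries. The share of Rab4a goes from 10.7% after IgE to 47.3% after antigen and that of Rab8b from 59.4% to 75.5%, while the points of Rab11a overlap between groups.

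Rabs of the endoplasmic reticulum and Golgi included the deepest fall. Here 3 of 11 tested members rose and 5 fell after antigen. Rab19, a Golgi Rab with few assigned functions, was at 55.7, 55.6 and 58.7 FPKM in untreated, 53.04, 54.5 and 50.1 in IgE and 17.8, 15.7 and 16.7 in antigen libraries. Its antigen libraries held less than any of the other 6 (log2 change -1.59, SE 0.0508, adjusted p = 9.38e-10). Rab43, which acts in transport through the Golgi, moved the opposite way, with 17.8, 17.8 and 19.1 FPKM after IgE and 35.2, 32.5 and 35.3 after antigen (log2 change 0.88, SE 0.04802, adjusted p = 5.29e-08). Rab6a, of transport from the Golgi back to the endoplasmic reticulum, was at 21.8, 21.8 and 21.8 and 29.02, 30.3 and 30.9 FPKM (log2 change 0.45, SE 0.0411, adjusted p = 3.2e-06), and its share of the sum with Rab6b went from 88.7% ± 1.21 to 92.9% ± 0.412.

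The abundant Rabs of early secretion had small changes on the deposited scale. Rab1b, of transport from the endoplasmic reticulum to the Golgi, was at 88.01 ± 3.46 FPKM after IgE and 88.7 ± 3.74 after antigen (log2 change 0.01, adjusted p = 0.839). Rab1, the gene RefSeq lists as Rab1a, was called lower (75.6 ± 1.79 to 70.5 ± 2.15 FPKM, log2 change -0.10, adjusted p = 0.0312), a call lost under 6 alternatives, among them the replicate block (adjusted p = 0.059), and Rab2a higher (69.3 ± 2.64 to 78.8 ± 4.81 FPKM, adjusted p = 0.00669). Quantile normalization turned Rab2a to -0.06, without a call (adjusted p = 0.189), and took Rab1b to -0.25 (adjusted p = 0.000308) and Rab1 to -0.34 (adjusted p = 1.26e-05). Rab18, linked to lipid droplets, and Rab6b were called lower with adjusted p of 0.038 and 0.0463, and lost the call under 7 and 11 alternatives. Rab36 fell from 1.09 ± 0.228 to 0.526 ± 0.0507 FPKM (log2 change -0.45, SE 0.0918, adjusted p = 0.00117). It reached the level needed for a test only in untreated and IgE libraries, so that a lower antigen level was built into its selection.

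Of the 6 tested Rabs with other or less settled roles, 1 rose and 1 fell. Rab12, which sends the transferrin receptor to degradation, was at 12.8, 12.4 and 11.8 FPKM after IgE and 17.5, 18.4 and 17.3 after antigen, with no overlap (log2 change 0.49, SE 0.0462, adjusted p = 3.93e-06). Rab44 was at 143, 143 and 151 FPKM after IgE and 145, 143 and 144 after antigen, which overlapped (log2 change -0.01, SE 0.0372, adjusted p = 0.743), and was called lower under quantile normalization (-0.35, adjusted p = 3.43e-05). Rab23, a regulator of Hedgehog signalling at 1.03 ± 0.0468 FPKM after antigen, was called lower (adjusted p = 0.0259) and lost the call under 5 alternatives. Rab28, Rab40b and Rab40c did not pass the test.

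Some members under the filter differed between groups as well. In a fit of 17019 genes with no filter on low values, 4 of the 11 members with any value above 0 were called higher after antigen and 1 lower, against 27.1% and 25.9% of those genes. Rab15, of recycling endosomes, was at 0.03605, 0.0236 and 0 FPKM after IgE and 0.392, 0.362 and 0.3303 after antigen. Rab34, of the Golgi, was at 0.0873, 0.172 and 0.0703 and 0.6097, 0.508 and 0.532 FPKM, and X-linked Rab39b at 0.0907, 0.0577 and 0.0712 and, in 2 libraries, 0.509 and 0.5796 FPKM. Antigen libraries of these 3 genes lay above all others, at levels where a 2 kb transcript has few fragments. Rab30 was also called higher, at no more than 0.13 FPKM, and Rab26 lower, from 0.459 ± 0.0808 to 0.185 ± 0.0598 FPKM. Against untreated cells the same fit also called 4 higher and 1 lower (27.6% and 27.0% of those genes), and for IgE against untreated it called none of the 11 (8.93% and 8.50%). Rab3b, Rab3c, Rab25, Rab33a, Rab39 and Rab42 were not called, and Rab9b was listed at 0 in all 8 usable libraries.

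IgE against untreated asks what sensitization alone does over 18 h. Few Rab genes responded: 3 of 46 were called higher and 3 lower, against 15.9% and 14.2% of all tested genes. The members' median change was -0.01 on the log2(FPKM + 1) scale, and -0.01 over all tested genes as well, with median absolute changes of 0.0814 and 0.115. The 6 calls compare with 30.1% of all genes called in either direction. Libraries did not overlap for 7 members on the higher and 9 on the lower side (21.3% and 21.8% of all genes), and no member reached a log2 change of 0.5 with a call (2.06% and 0.808% of all genes). Rab44 was at 198, 201 and 194 FPKM in untreated and 143, 143 and 151 in IgE libraries (log2 change -0.44, SE 0.0372, adjusted p = 6.03e-05). Its antigen libraries overlapped the IgE libraries and lay below the untreated ones. Rab37 was at 169, 164 and 167 FPKM in untreated and 141, 141 and 138 in IgE libraries (log2 change -0.25, SE 0.0335, adjusted p = 0.000512), the first of its downward steps. For both genes the groups did not overlap, and both calls held under every alternative except a minimum log2 change of 0.5.

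The other 4 calls after IgE were small. Rab8b was at 117, 122 and 119 FPKM in untreated and 111, 111 and 106 in IgE libraries (log2 change -0.12, SE 0.0384, adjusted p = 0.033), lower here and higher after antigen. Rab10 went from 64.8 ± 0.954 to 70.6 ± 0.839 FPKM (log2 change 0.12, SE 0.0354, adjusted p = 0.0265) and Rab3d from 20.1 ± 0.405 to 22.1 ± 0.722 FPKM (log2 change 0.13, SE 0.0387, adjusted p = 0.032). Rab27a was at 23.6, 23.3 and 24.7 and 28.1, 28.1 and 24.6 FPKM, which overlapped through IgE replicate 3 (log2 change 0.17, SE 0.0557, adjusted p = 0.0474). Each of these calls was lost under 6 or more alternatives, and all 3 rises were lost when only these 2 groups were fitted. Without IgE replicate 3, the library in the most different replicate pairs, 5 members were called higher and 4 lower. The largest upward change was not called: Rab40b went from 1.25 ± 0.109 to 1.75 ± 0.309 FPKM without overlap (log2 change 0.29, SE 0.105, adjusted p = 0.0629). It lay close to the level needed for a test, and quantile normalization called it higher (0.34, adjusted p = 0.0498). Of the members followed in every comparison, Rab27b, Rab3a, Rab5a, Rab5c, Rab7, Rab11a, Rab4a, Rab12, Rab8a, Rab32 and Rab38 did not pass the test, with log2 changes between -0.15 for Rab4a and 0.09 for Rab7 and adjusted p between 0.0824 for Rab3a and 0.799 for Rab38. Of these, Rab38 was called lower under quantile normalization (-0.12, adjusted p = 0.0299) and Rab4a lower without untreated replicate 2 (adjusted p = 0.0336). Median centring left 2 higher and 3 lower and quantile normalization 2 higher and 6 lower, so the share of higher calls went from 50% to 40% and 25%. These shares rest on few calls, and no share of all genes called under the same scaling is given here.

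Antigen against untreated compares both treatments together with neither, and shares its libraries with the comparisons above. Of the 46 tested members 17 were called higher and 20 lower, against 38.7% and 35.6% of all tested genes, with a median of 0.01 against 0.02. The 37 calls compare with 74.3% of all genes called in either direction, and the libraries of 19 and 20 members did not overlap (41.5% and 38.0% of all genes). A log2 change of at least 0.5 was reached by 7 members upward and 9 downward (17.9% and 15.2% of all genes). The largest rises were those of Rab4a (5.21-fold, log2 change 2.09, SE 0.0857, adjusted p = 5.19e-09), Rab20 (2.505-fold, adjusted p = 1.47e-08), Rab43 (1.85-fold, adjusted p = 6.14e-08), Rab38 (1.66-fold, adjusted p = 2.46e-07), Rab22a (1.67-fold, adjusted p = 4.77e-08) and Rab8b (1.55-fold, adjusted p = 1.18e-07). Quantile normalization cut Rab38 to 0.25 on the log2 scale, from 0.73, Rab8b to 0.24, from 0.63, and Rab7 to 0.22, from 0.61, and Rab38 and Rab8b were then below Rab12 (0.36). The largest falls on the log2(FPKM + 1) scale were those of Rab19 (log2 change -1.70, SE 0.0508, adjusted p = 5.19e-10), Rab3a (-0.76, adjusted p = 4.97e-07), Rab37 (-0.75, adjusted p = 9.68e-09), Rab21 (-0.72, adjusted p = 1.52e-07), Rab7l1 (-0.62, adjusted p = 8.97e-06) and Rab17 (-0.61, adjusted p = 9.73e-05). By fold, Rab36 came second to Rab19, with 2.53-fold against 3.39-fold. Rab36 went from 1.33 ± 0.208 to 0.526 ± 0.0507 FPKM (log2 change -0.61, adjusted p = 0.000142), with the limit of its selection given above. Rab44 was lower too (log2 change -0.45, SE 0.0372, adjusted p = 1.28e-06). Rab5c, Rab40c and Rab33b, not called against IgE, were called here, Rab5c from 126 ± 2.46 to 142 ± 4.33 FPKM (log2 change 0.17, SE 0.0408, adjusted p = 0.00293) and turned by quantile normalization (-0.22). The same scaling turned the called rises of Rab2a (-0.14) and Rab14 (-0.04). Rab27b, Rab3d, Rab8a and Rab32 differed from untreated cells by -0.27, -0.52, -0.28 and -0.26 (adjusted p = 0.00055, 6.1e-07, 0.000423 and 0.000797), and Rab5a, Rab7 and Rab12 by 0.33, 0.61 and 0.43 (adjusted p = 0.000428, 4.3e-07 and 9.44e-06). Rab27a was at 23.9 ± 0.772 FPKM in untreated and 24.7 ± 0.9604 in antigen cells (log2 change 0.05, SE 0.0557, adjusted p = 0.481), and Rab11a at 33.1 ± 0.445 and 34.1 ± 1.07 FPKM (log2 change 0.04, SE 0.0366, adjusted p = 0.297). Under quantile normalization Rab11a was called lower (-0.12, adjusted p = 0.0106). Quantile normalization gave 13 higher and 25 lower, a share of higher calls of 34.2% in place of 45.9%. It also took the median of all tested genes from 0.02 to -0.06. No share of all genes called under this scaling is given here, so the shift cannot be read as particular to Rab genes.

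The genes that control and read Rab proteins were described from lists by role. These lists were chosen with earlier results known, and their counts are read against the same 37.6% and 36.2% of all genes. Named from each list were up to 4 called genes with the smallest adjusted p, so genes with larger changes can be missing. Of 38 listed exchange factors, which load Rabs with GTP, 27 were tested and 10 rose and 7 fell after antigen. Rabgef1, an exchange factor of Rab5 that restrains mast cell activation, rose 3.57-fold from 10.8 ± 0.199 to 38.5 ± 1.16 FPKM (log2 change 1.74, SE 0.0427, adjusted p = 1.3e-10). Ankrd27, the exchange factor of Rab21 and also a partner of Rab32 and Rab38, fell from 26.4 ± 0.523 to 12.5 ± 0.301 FPKM (log2 change -1.02, SE 0.0392, adjusted p = 3.51e-09), and Dennd6a, an exchange factor of Rab14, from 21.2 ± 0.296 to 13.8 ± 0.321 FPKM. After IgE alone, 1 of the 27 was called higher and 5 lower, against 15.9% and 14.2% of all genes.

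Of 35 listed GAPs, which end the active state, 32 were tested and 9 rose and 13 fell after antigen. Tbc1d10a, which acts on Rab27 and Rab35, went from 10.7 ± 0.328 to 31.9 ± 0.464 FPKM (log2 change 1.49, SE 0.0386, adjusted p = 1.95e-10) and Rab3gap2, a subunit of a complex acting on Rab3, from 15.4 ± 0.205 to 38.2 ± 0.359 FPKM. Tbc1d8 fell from 36.6 ± 1.22 to 11.5 ± 0.465 FPKM (log2 change -1.58, SE 0.0453, adjusted p = 4.19e-10) and Evi5 from 5.86 ± 0.498 to 2.29 ± 0.0484 FPKM. Of the 7 genes for prenylation, escort and membrane extraction, 1 rose and 3 fell. The subunits of the enzyme that attaches the lipid anchor moved apart: Rabggta fell (-0.67) and Rabggtb rose (0.37). Chml, an escort protein, fell (-0.28).

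Of 46 listed effectors, 35 were tested and 16 rose and 12 fell after antigen. Rab11fip4, which binds Rab11, rose 10.2-fold from 1.56 ± 0.1896 to 15.8 ± 0.734 FPKM (log2 change 2.72, SE 0.0663, adjusted p = 1.26e-10). Sytl3 and Sytl2, both effectors of Rab27, rose from 26.7 ± 0.276 to 86.95 ± 4.202 and from 38.95 ± 0.779 to 73.04 ± 1.69 FPKM, while Rab27b fell and Rab27a did not pass the test. Other Rab27 effectors of the list, named after their values were seen, went the other way: Mlph fell from 6.67 ± 0.218 to 2.66 ± 0.0753 FPKM and Unc13d from 52.6 ± 2.48 to 31.7 ± 1.02 FPKM, and Sytl1 was not called (adjusted p = 0.0546). Eea1, the tether recruited by Rab5, rose from 18.6 ± 0.758 to 42.3 ± 0.945 FPKM. The 12 effectors that fell had larger adjusted p than the 4 named rises. After IgE alone, 1 of the 35 effectors was called higher and 8 lower, against 15.9% and 14.2% of all genes, and Rab11fip4 and Sytl3 were among the lower ones (-0.53 and -0.40). The medians over tested genes for antigen against IgE were 0.11 for exchange factors, -0.06 for GAPs, -0.18 for the prenylation list and 0.01 for effectors, against 0.01 over all tested genes.

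**Figure D5:**
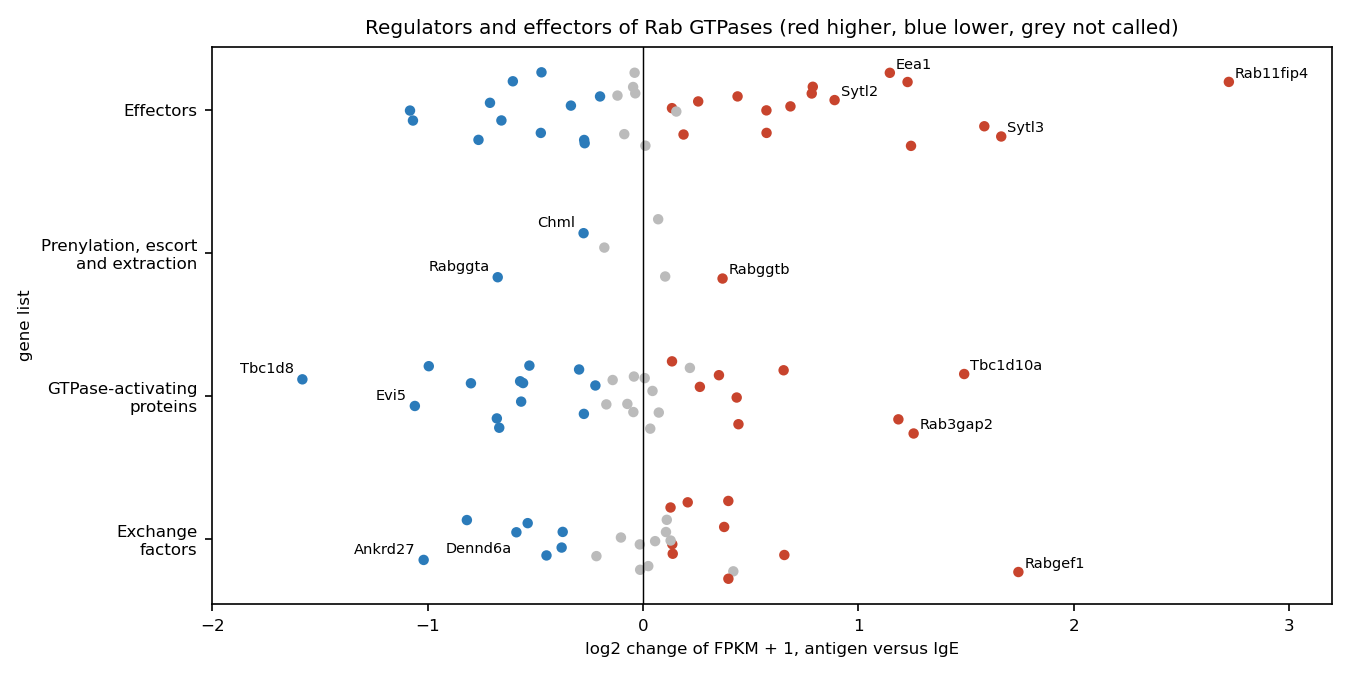
Change of the tested exchange factors, GTPase-activating proteins, prenylation genes and effectors of Rab GTPases on the log2(FPKM + 1) scale, antigen against IgE, 1 point per gene reported here, with the vertical position within a list arbitrary. Each list holds genes on both sides of 0, from -1.58 for Tbc1d8 to 2.72 for Rab11fip4.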

How the data were processed

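RNA-seq values of 9 libraries were taken from 1 table of FPKM deposited by the authors. The submitters' processing notes name TopHat2 2.0.12, Bowtie 0.12.7 and the mm9 build. How FPKM was computed, with which annotation, use of strand and treatment of reads shared by paralogs, is not given in the sources used here, so values of close relatives and of genes with antisense partners are uncertain. Depth was estimated by matching low values to whole fragments, and 55.5% to 64.9% of those values lay within 0.1 of a whole fragment. Replicates differed by 1.25 to 2.01 times the counting noise, so no library appeared to be deposited more than once. The most different pairs held IgE replicate 3.

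Genes at 1 FPKM or more in at least 3 libraries entered limma 3.58.1 (R 4.3.3). Values were taken as log2(FPKM + 1) and all 9 libraries were fitted together by group, with a trend in the prior, two-sided tests and Benjamini-Hochberg adjustment over all tested genes. The script was tested on simulated data. Zeros of chromosome X and Y genes in antigen replicate 3 were set to missing, with chromosomes from the RefSeq table. Role lists came from general knowledge, where the entry Rab6, an older symbol, was read as Rab6a. The members and lists were chosen with earlier results of these data known. Named with full statistics were the 6 largest rises and falls in log2 change per comparison among called members without overlap, and 14 Rabs of interest whether called or not, with others by level and count. Some genes of the regulator lists enter the counts but are not reported here. Alternatives covered the zeros, pseudocount, filter, scaling, prior, libraries in the fit, a replicate block, a minimum log2 change of 0.5 and each library left out.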

Additional observations from a re-analysis of the deposited data

How the results depend on the processing

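The numbers of Rab genes called after antigen stayed within 1.5 times the main counts under every alternative other than a minimum log2 change of 0.5. Of 34 members called for antigen against IgE, 26 were called under every alternative without that minimum, as were 2 of 6 for IgE against untreated and 31 of 37 for antigen against untreated. The minimum left 7 higher and 7 lower for antigen against IgE, 0 and 0 for IgE against untreated, and 7 and 9 for antigen against untreated. For IgE against untreated, the 3 higher calls became 0 when only these 2 groups were fitted, and 0 to 5 with each library left out, 5 of them without IgE replicate 3. The lower calls were 2 to 4 with each library left out and 6 under quantile normalization. With each library left out, antigen against IgE gave 15 to 16 higher and 15 to 21 lower, and antigen against untreated 16 to 18 higher and 18 to 20 lower. Apart from the minimum log2 change of 0.5 and the fit with no filter, no share of all tested genes under the same alternative is given. The counts under the alternatives here and below therefore describe the members only.

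Quantile normalization moved the median of all tested genes by -0.08 for both antigen comparisons, under 0.1, and the members' medians to -0.17 for antigen against IgE, -0.0411 for IgE against untreated and -0.17 for antigen against untreated. Among the members given full statistics, those that changed sign under it were Rab5c (-0.23 against IgE and -0.22 against untreated), Rab11a (-0.0597 and -0.12), Rab27a for antigen against untreated (-0.10), and Rab27b (-0.0238), Rab8a (-0.0201) and Rab38 (-0.12) for IgE against untreated. Median centring brought Rab27a and Rab11a for antigen against untreated to -0.0016 and -0.0027. Without 1 library, Rab27b ranged from -0.0149 to 0.0775 and Rab38 from -0.0168 to 0.0623 for IgE against untreated. The cause of these changes was not tested.

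For samples with the same replicate number, deviations from the group mean correlated at 0.0393 to 0.351 between untreated and IgE libraries. The range was -0.0435 to 0.0958 between untreated and antigen libraries and -0.331 to -0.0839 between IgE and antigen libraries. Samples with different numbers gave -0.348 to 0.242. With 3 libraries per group, these values cannot settle whether the numbers pair the samples. With a replicate block, 15 members were higher and 16 lower for antigen against IgE, 1 and 2 for IgE against untreated, and 17 and 19 for antigen against untreated. Depth limits the members near 1 FPKM, such as Rab36, Rab23 and Rab40b, and all those under the filter.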
